A study of Homo sapiens with 22 samples.

Results

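HCST, TYROBP, NFKBID and FCER1G are 4 genes of the 48162 in the RNA-seq count table, and 3 of them lie side by side on chromosome 19. They were picked by symbol with their RNA-seq values already known, HCST being among the genes furthest above the control with both FIP1L1 shRNAs. Their levels and log2 changes are therefore given as a description, without a test. The cells were Kasumi-1, an established acute myeloid leukaemia line with a RUNX1::RUNX1T1 fusion, grown in RPMI with serum. Every library came from cells that a lentivirus had transduced and puromycin had selected. The virus carried shRNA 1 against FIP1L1, shRNA 2 against FIP1L1 or a control shRNA, and there were 4 RNA-seq libraries of each. The labels give neither the time after transduction nor whether replicates were transduced separately, so a p-value speaks only of the spread from library to library. FIP1L1 encodes a subunit of the machinery that cleaves and polyadenylates pre-mRNA, and both shRNAs were tested for what its loss does to the transcriptome of one cell line.

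The group is built around small membrane proteins that signal for receptors lacking a signalling tail of their own. HCST (DAP10) holds a YxNM motif, which when phosphorylated binds the p85 subunit of PI 3-kinase and GRB2, and its best known partner is the NK and T cell receptor KLRK1 (NKG2D). TYROBP (DAP12) and FCER1G (the Fc receptor common gamma chain) hold an ITAM, a paired tyrosine motif that recruits SYK or ZAP70 once SRC-family kinases have phosphorylated it. Myeloid cells use TYROBP with receptors such as TREM1, CLEC5A and SIRPB1, and FCER1G with Fc receptors and activating LILRs. NFKBID (IkBNS) is no adaptor but a nuclear IkB protein that modulates NF-kB target genes, and it stands here as the neighbour of HCST.

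In GENCODE 29 on GRCh38, NFKBID (ENSG00000167604) spans chr19:35887653-35902303 on the minus strand, HCST (ENSG00000126264) chr19:35902480-35904377 on the plus strand and TYROBP (ENSG00000011600) chr19:35904401-35908295 on the minus strand. NFKBID and HCST thus start back to back with 176 bases between them. HCST and TYROBP end tail to tail with 23 bases between the 3' ends of these gene spans. FCER1G (ENSG00000158869) lies apart at chr1:161215234-161220699 on the plus strand. The library kit, as named, does not mark strand, so a read that ran past the end of HCST or TYROBP could not be told from a read of the other. The annotation also places AD000864.1, a minus strand entry that is not in the count table, across the start of both HCST and NFKBID.

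The start regions are shown because the outermost of the 3 RefSeq start windows of NFKBID overlaps that of HCST. The NFKBID window printed is an inner one that does not overlap it. Which NFKBID start these cells used was not tested. Each RefSeq window (GRCh38.p14) runs from 250 bases before the first transcribed base to 50 after it and is written 5' to 3' on the gene's own strand. Capitals mark matches on either strand to a RUNX core (TGTGGT), a PU.1 core (GAGGAA), C/EBP (TTGCNNAA), AP-1 (TGANTCA) or the NF-kB consensus.
HCST, chr19:35902279-35902578, plus strand: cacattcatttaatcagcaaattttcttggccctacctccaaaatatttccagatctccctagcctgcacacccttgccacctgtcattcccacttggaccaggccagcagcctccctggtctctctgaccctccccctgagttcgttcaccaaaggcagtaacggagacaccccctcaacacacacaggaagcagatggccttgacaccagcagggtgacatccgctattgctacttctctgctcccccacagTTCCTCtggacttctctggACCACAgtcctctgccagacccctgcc
TYROBP, chr19:35908246-35908545, minus strand: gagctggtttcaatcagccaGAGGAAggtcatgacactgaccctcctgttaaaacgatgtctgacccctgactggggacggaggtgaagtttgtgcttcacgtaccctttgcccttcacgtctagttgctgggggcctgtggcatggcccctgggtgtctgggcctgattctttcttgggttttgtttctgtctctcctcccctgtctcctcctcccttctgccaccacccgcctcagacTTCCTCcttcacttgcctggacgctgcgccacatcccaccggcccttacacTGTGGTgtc
NFKBID, chr19:35900491-35900790, minus strand: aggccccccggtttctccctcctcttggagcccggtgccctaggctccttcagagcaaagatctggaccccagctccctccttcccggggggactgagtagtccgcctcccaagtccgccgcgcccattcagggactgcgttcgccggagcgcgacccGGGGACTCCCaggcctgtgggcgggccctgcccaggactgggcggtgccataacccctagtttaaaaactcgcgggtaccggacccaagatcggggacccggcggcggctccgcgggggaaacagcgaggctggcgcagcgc
FCER1G, chr1:161215045-161215344, plus strand: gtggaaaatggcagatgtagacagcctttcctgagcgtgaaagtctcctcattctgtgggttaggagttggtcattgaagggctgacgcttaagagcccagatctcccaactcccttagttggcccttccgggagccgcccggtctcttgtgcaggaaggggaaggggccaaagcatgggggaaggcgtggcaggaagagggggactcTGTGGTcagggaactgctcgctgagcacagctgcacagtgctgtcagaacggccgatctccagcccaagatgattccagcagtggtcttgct

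RefSeq gives NFKBID 3 start windows, and the outermost shares 275 of its 300 bases with the HCST window as an exact reverse complement. That shared stretch holds a PU.1 core, at 4 to 9 in the HCST numbering, where 0 is the first transcribed base, and TYROBP holds PU.1 cores at -230 to -225 and -10 to -5. HCST, TYROBP and FCER1G each hold a single RUNX core, which in HCST lies at 23 to 28, in TYROBP at 41 to 46 and in FCER1G at -42 to -37. Of 35116 promoter windows, 13.1% hold a RUNX core and 27.9% a PU.1 core, so these short matches are common. The NF-kB consensus, found in 5.91% of windows, occurs in both inner NFKBID windows, as GGGGACTCCC in the one printed and as GGAATTCCCC in the other, and in none of the other 4 windows of these genes. No window of the 4 genes holds the C/EBP or AP-1 letters, which 10.5% and 7.71% of all windows contain.

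Because FIP1L1 acts at the 3' ends of transcripts, the last 30 bases of the principal transcript of the 3 adaptors (GENCODE 29, GRCh38, transcript strand) are printed with the polyadenylation signal AATAAA in capitals.
HCST, chr19:35904348-35904377: cccctcagaacccccacatgtccccatccc
TYROBP, chr19:35904410-35904439: cccaatactctcctaaAATAAAcatgaagc
FCER1G, chr1:161219219-161219248: cccccAATAAAactgccatggactggactc

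The signal stands 8 bases before the end of the TYROBP transcript printed and 19 before that of FCER1G, while the HCST end holds neither AATAAA nor ATTAAA in this window. The gene spans given above run further than these transcripts, to 35904401 for TYROBP and to 161220699 for FCER1G. Among 19891 principal transcripts 50.7% hold AATAAA and 13.9% ATTAAA in their last 30 bases. The 3'READS table of poly(A) sites was not used here, since its hg19 positions carry no gene names and an hg19 annotation was not used here.

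HCST had the most reads of the 4 with both shRNAs. It had 168, 298, 217 and 254 reads in the shRNA 1 libraries, 460, 417, 508 and 278 in the shRNA 2 libraries, and 15, 16, 29 and 35 in the control libraries. On the CPM scale, counts relative to the TMM-scaled library size, this was 9.60, 13.7, 12.7 and 16.7 with shRNA 1, 24.4, 23.6, 27.8 and 18.4 with shRNA 2, and 1.12, 1.37, 2.00 and 1.96 in the control. The 3 groups did not overlap, with shRNA 2 highest and the control lowest. On the log2 scale HCST lay above the control by 3.00 (SE 0.21) with shRNA 1, a fold of 7.98, and by 3.84 (SE 0.21) with shRNA 2, a fold of 14.3. The shRNA 2 libraries were in turn above the shRNA 1 libraries by 0.84 (SE 0.16).

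The comparisons of the shRNAs with the control share the 4 control libraries. TYROBP, the ITAM adaptor that ends next to HCST, had the opposite order of the shRNAs. Its reads were 54, 112, 83 and 107 with shRNA 1, 18, 19, 15 and 15 with shRNA 2, and 1, 0, 3 and 4 in the control. These were 3.09, 5.15, 4.84 and 7.04 CPM with shRNA 1, 0.954, 1.08, 0.822 and 0.994 CPM with shRNA 2, and 0.0747, 0, 0.207 and 0.224 CPM in the control. Again the 3 groups did not overlap, but here shRNA 1 was highest. The log2 difference from the control was 5.12 (SE 0.47) with shRNA 1 and 2.74 (SE 0.52) with shRNA 2, and that of shRNA 2 from shRNA 1 was -2.38 (SE 0.35). With only 8 control reads in all, the ratio of summed reads was 35.7 with shRNA 1 (exact binomial 95% interval 17.9 to 83.3, counting error only) and 6.88 with shRNA 2 (3.30 to 16.6).

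NFKBID, which starts next to HCST, stood higher with both shRNAs to a similar degree. It had 86, 171, 113 and 152 reads with shRNA 1, 142, 187, 145 and 108 with shRNA 2, and 39, 41, 35 and 34 in the control. In CPM the shRNA 1 libraries had 4.91, 7.87, 6.59 and 10.0, the shRNA 2 libraries 7.52, 10.6, 7.95 and 7.16, and the control libraries 2.91, 3.50, 2.42 and 1.91. Both shRNA groups lay wholly above the control and overlapped each other. The log2 difference was 1.47 (SE 0.24) with shRNA 1 and 1.65 (SE 0.24) with shRNA 2. Between the shRNAs it was 0.18 (SE 0.21), and 0.03 to 0.36 when any single library was left out.

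FCER1G, the chain shared by several Fc receptors, was low throughout. It had 14, 57, 19 and 18 reads with shRNA 1, 40, 27, 47 and 23 with shRNA 2, and 2, 5, 3 and 8 in the control. As CPM these were 0.80, 2.62, 1.11 and 1.18 with shRNA 1, 2.12, 1.53, 2.58 and 1.52 with shRNA 2, and 0.149, 0.427, 0.207 and 0.449 in the control. Every shRNA library exceeded every control library, the shRNA groups overlapped, and the spread within shRNA 1 came mainly from its replicate 2. The log2 difference from the control was 2.19 (SE 0.50) with shRNA 1 and 2.61 (SE 0.50) with shRNA 2. That of shRNA 2 from shRNA 1 was 0.42 (SE 0.41), and 0.91 without shRNA 1 replicate 2, where the difference of shRNA 1 from the control was 1.70.

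All 4 genes passed the low-count filter, TYROBP and FCER1G only through the shRNA libraries, so no count of them is set against other genes. Within shRNA 1, replicate 1 was the lowest library for each of the 4 genes and replicate 4 the highest for HCST, TYROBP and NFKBID. Within shRNA 2, replicate 4 was the lowest library for HCST, NFKBID and FCER1G, replicate 3 the highest for HCST and FCER1G, and replicate 2 the highest for TYROBP and NFKBID.

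**Figure D1:**
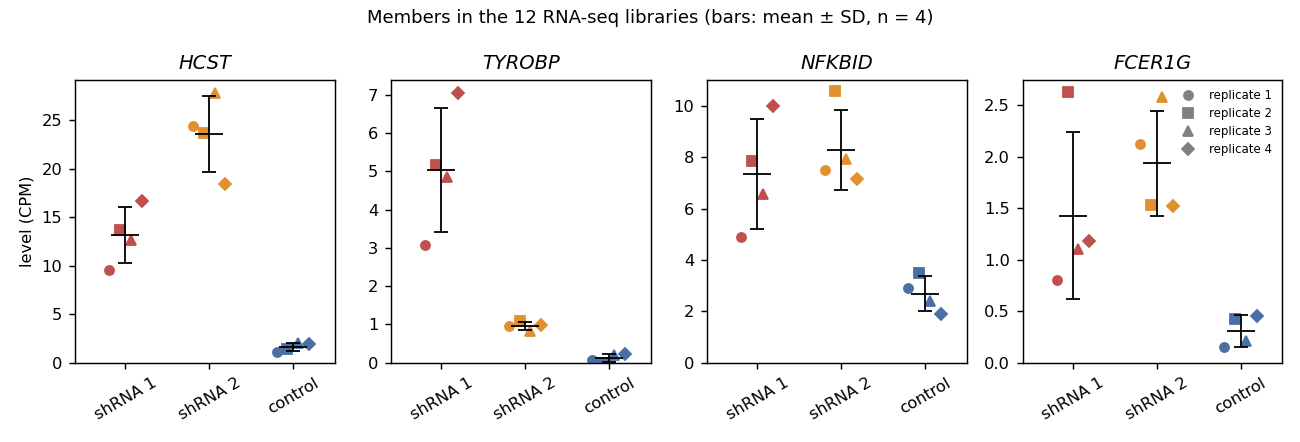
Level in CPM (y axis, linear, a scale for each gene) of HCST, TYROBP, NFKBID and FCER1G in the shRNA 1, shRNA 2 and control libraries, with replicate numbers as symbols and mean ± SD (n = 4) as bars. Every shRNA library lies above every control library in each panel, HCST is highest with shRNA 2 (18.4 to 27.8 CPM) and TYROBP with shRNA 1 (3.09 to 7.04 CPM). The members were picked with these values known, and the share of all tested genes that separate in this way was not counted.

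A ratio of reads within a library does not depend on scaling between libraries. Per read of TYROBP there were 3.11, 2.66, 2.61 and 2.37 reads of HCST in the shRNA 1 libraries. In the shRNA 2 libraries there were 25.6, 21.9, 33.9 and 18.5, and in control replicates 1, 3 and 4 there were 15, 9.67 and 8.75, while control replicate 2 had no TYROBP read. The shRNA 1 ratios thus lay below those of the control. The shRNA 2 ratios lay above those of control replicates 1, 3 and 4, which rest on 1 to 4 TYROBP reads each. Control replicate 2, with 16 HCST reads and no TYROBP read, gives no ratio and cannot be placed below shRNA 2. Per read of NFKBID, HCST had 1.82 ± 0.137 reads with shRNA 1, 2.89 ± 0.587 with shRNA 2 and 0.658 ± 0.323 in the control (SD, n = 4 each). This ratio ran from 1.67 to 1.95, from 2.23 to 3.50 and from 0.385 to 1.03 in these groups, which did not overlap. HCST and NFKBID therefore differed in how far they stood above the control. With shRNA 1 so did the genes that end tail to tail, while with shRNA 2 this holds only against control replicates 1, 3 and 4.

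**Figure D2:**
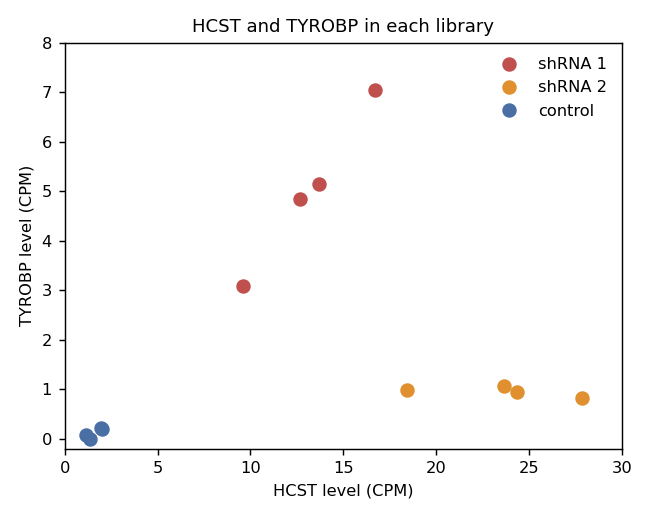
HCST level against TYROBP level in CPM (linear axes), 1 point for each of the 12 libraries, coloured by group. The shRNA 1 points reach 7.04 CPM of TYROBP at 16.7 CPM of HCST, the shRNA 2 points stay between 0.822 and 1.08 CPM of TYROBP while HCST spans 18.4 to 27.8 CPM, and the control points lie near the origin.

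Levels of different genes can be compared only per length. Divided by the length of all annotated exons (613 bases for HCST, 907 for TYROBP, 3198 for NFKBID and 964 for FCER1G), HCST stood at 21.5 ± 4.79 CPM per kb with shRNA 1, 38.4 ± 6.34 with shRNA 2 and 2.63 ± 0.716 in the control (SD, n = 4 each). TYROBP stood at 5.55 ± 1.79, 1.06 ± 0.117 and 0.140 ± 0.119 CPM per kb in these groups. For NFKBID the level was 2.30 ± 0.671 with shRNA 1, 2.6 ± 0.488 with shRNA 2 and 0.840 ± 0.213 in the control, and for FCER1G it was 1.48 ± 0.844, 2.01 ± 0.528 and 0.320 ± 0.158 CPM per kb. With shRNA 1 the order was HCST, TYROBP, NFKBID, FCER1G, and the last 2 overlapped between libraries. With shRNA 2 it was HCST, NFKBID, FCER1G, TYROBP, with NFKBID and FCER1G overlapping. In the control the order was the same as with shRNA 2, and FCER1G and TYROBP overlapped.

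The genes whose pattern was most like that of a member were found by Pearson's r of log2 CPM over the 12 libraries, which mostly reflects the 3 group levels, among 14029 other genes with a mean of at least 1 CPM. For HCST they were PPP1R18 (r = 0.992), CILP2 (0.986), SMPD1 (0.981), HP1BP3 (0.981) and PSAP (0.980). PPP1R18 stood at 247 CPM with shRNA 1, 313 with shRNA 2 and 123 in the control. For TYROBP they were CLEC12A (r = 0.988), an inhibitory C-type lectin of myeloid cells, CREG1 (0.985) and ASAH1 (0.985), and CLEC12A stood at 33.0 CPM with shRNA 1, 12.5 with shRNA 2 and 6.19 in the control. For NFKBID they were GRIPAP1 (r = 0.984), ZYX (0.972) and BCL3 (0.968), another nuclear IkB protein. For FCER1G they were MMD (r = 0.960), FAM222B (0.950) and TAF5L (0.944).

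The other genes within 100 kb of HCST were examined next. There were 10 in the count data, of which 5 were tested. With shRNA 1, APLP1, an amyloid precursor-like protein, was higher, LRFN3, a neuronal adhesion protein, was lower and 3 were not called, against 57.3% of all tested genes called (28.6% higher, 28.7% lower). With upper quartile scaling 5380 genes were called higher and 3832 lower with shRNA 1, in place of 4533 and 4543. LRFN3 stood at 12.3 ± 1.75 CPM with shRNA 1, 25.7 ± 2.17 with shRNA 2 and 23.1 ± 1.34 in the control (SD, n = 4 each). With shRNA 1 it fell by 0.91 in log2 (SE 0.12, edgeR adjusted p = 5.23e-07), and it differed by 0.15 with shRNA 2 (SE 0.11, edgeR adjusted p = 0.277). LRFN3, the next gene past TYROBP on the chromosome, thus fell with the shRNA with which TYROBP stood highest, and the shRNAs differed in it (log2 1.06, SE 0.12, edgeR adjusted p = 4.02e-08).

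With shRNA 2, 3 of the 5 neighbours were higher and none was lower, against 50.0% of all genes called (24.7% higher, 25.3% lower). These were APLP1, SDHAF1, an assembly factor of succinate dehydrogenase, and SYNE4, a nuclear envelope protein. APLP1, on the other side of NFKBID, stood at 1.57 ± 0.925 CPM with shRNA 1, 1.72 ± 0.438 with shRNA 2 and 0.629 ± 0.263 in the control (SD, n = 4 each). It was higher by 1.29 (SE 0.46, edgeR adjusted p = 0.02) with shRNA 1 and by 1.41 (SE 0.46, edgeR adjusted p = 0.0138) with shRNA 2. The calls of APLP1 were lost without control replicate 2 or 3 or shRNA 1 replicate 2 for shRNA 1 (edgeR adjusted p = 0.056, 0.0538 and 0.123) and without shRNA 2 replicate 3 for shRNA 2 (0.0555). SYNE4 (log2 0.83, edgeR adjusted p = 0.0419 with shRNA 2) lost its call without control replicate 1, 3 or 4 (0.0513, 0.0795 and 0.134) or shRNA 2 replicate 1, 2 or 3 (0.0531, 0.143 and 0.0737) and with replicate number as a block (0.0531), and was called with shRNA 1 without shRNA 1 replicate 1 (0.0237). SDHAF1 (log2 0.35, edgeR adjusted p = 0.0842 with shRNA 1) was called with shRNA 1 without shRNA 1 replicate 1 or 2 (0.00854 and 0.0435) and with upper quartile scaling (0.0291), and between the shRNAs without shRNA 1 replicate 4 (0.0165). Called neighbours with shRNA 1 numbered 4 without shRNA 1 replicate 1, and 1 without control replicate 2 or 3, while with shRNA 2 there was 1 without shRNA 2 replicate 3.

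**Figure D3:**
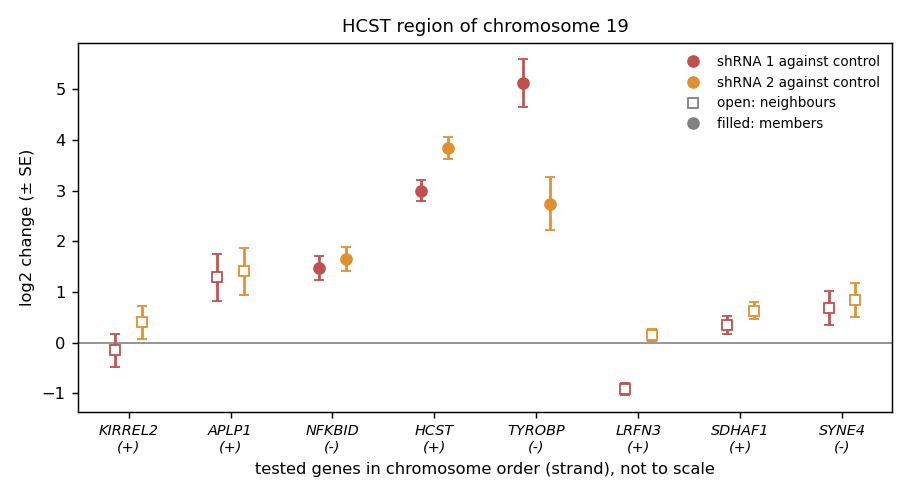
Log2 change against the control (y axis, ± SE from the fit) of the tested genes within 100 kb of HCST in chromosome order, not to scale, with the strand in brackets. Filled symbols are the members and open symbols the neighbours: NFKBID, HCST and TYROBP lie between 1.47 and 5.12, and LRFN3, the next gene after TYROBP, lies at -0.91 with shRNA 1 and 0.15 with shRNA 2.

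Among receptors that pair with TYROBP or HCST and the stress ligands of KLRK1, the genes called were more often higher than lower. Of 24 genes 13 were tested. The shRNA 1 libraries had 5 of them higher and 1 lower, and the shRNA 2 libraries 6 higher and none lower. With shRNA 1 the higher genes were the receptors SIRPB1 and SIGLEC16 and the ligands MICA, MICB and ULBP1. The lower gene was the ligand RAET1E. With shRNA 2 the higher genes were the receptors SIRPB1, SIGLEC16, TREM1 and CLEC5A and the ligands MICB and ULBP2. The median log2 change of the 13 tested genes was 0.30 and 0.85, beside 0.02 and 0.00 over all tested genes. Of the 13, 6 were called with each shRNA (46.2%), beside 57.3% and 50.0% of all genes. Under the processing alternatives 5 to 9 were called with each shRNA, so the list cannot be placed below or above those shares. KLRK1 itself, the partner of HCST, was listed at 0 reads in all 12 libraries. It overlaps the annotated read-through KLRC4-KLRK1 on the same strand, also at 0, and whether the counting dropped reads shared by overlapping genes was not tested.

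SIRPB1, an activating signal-regulatory protein that pairs with TYROBP, stood at 40.5 ± 3.71 CPM with shRNA 1, 51.9 ± 3.16 with shRNA 2 and 15.1 ± 1.45 in the control (SD, n = 4 each). Its log2 rise was 1.43 (SE 0.10, edgeR adjusted p = 1.77e-11) with shRNA 1 and 1.79 with shRNA 2 (SE 0.10, edgeR adjusted p = 8.26e-13). SIRPB1 overlaps the protein-coding entry AL049634.2 on the same strand and AL049634.3 on the other. How reads in the overlaps were counted was not tested. SIGLEC16, a sialic acid receptor that pairs with TYROBP, rose by 2.41 (SE 0.45, edgeR adjusted p = 7.74e-05) and 1.31 (SE 0.47, edgeR adjusted p = 0.0237) at a low level, with 0.351 ± 0.188 CPM in the control. MICB, a KLRK1 ligand, stood at 53.7 ± 2.97, 49.4 ± 3.06 and 23.7 ± 2.53 CPM with shRNA 1, shRNA 2 and the control shRNA and was higher with both. Its relative MICA rose with shRNA 1 to 24.0 ± 1.69 CPM, against 14.7 ± 3.25 in the control, and stood at 16.8 ± 1.75 with shRNA 2 (edgeR adjusted p = 0.246, and 0.035 without control replicate 4). TREM1, an amplifier of myeloid inflammation that signals through TYROBP, rose with shRNA 2 to 6.08 ± 0.870 CPM, against 1.68 ± 0.830 in the control, and stood at 1.35 ± 0.709 with shRNA 1 (edgeR adjusted p = 0.405). Its level thus differed between the shRNAs by 2.20 (SE 0.36, edgeR adjusted p = 1.37e-05), higher with the shRNA with which TYROBP stood lower. The shRNA 2 call of SIGLEC16 was lost without control replicate 2 or 3 or shRNA 2 replicate 3 (edgeR adjusted p = 0.072, 0.0678 and 0.0648), and its paralogs, like MICA and MICB, can share reads.

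Receptors that signal through FCER1G also changed in both directions. Of 19 genes 9 were tested, and shRNA 1 had 6 of these higher and 1 lower, shRNA 2 had 4 higher and 2 lower. The median log2 change was 0.54 and 0.47, and 7 and 6 of the 9 genes were called (77.8% and 66.7%), beside 57.3% and 50.0% of all genes. FCAR, the Fc receptor for IgA, stood at 6.07 ± 3.16 CPM with shRNA 1, 2.67 ± 0.662 with shRNA 2 and 0.388 ± 0.185 in the control (SD, n = 4 each), and rose by 3.95 (SE 0.45, edgeR adjusted p = 1.66e-07) and 2.78 (SE 0.47, edgeR adjusted p = 4.26e-05). LILRA2, an activating leukocyte immunoglobulin-like receptor, stood at 70.8 ± 5.37, 121 ± 3.02 and 49.6 ± 1.06 CPM with shRNA 1, shRNA 2 and the control shRNA and was higher with both. GP6, the collagen receptor of platelets, was higher with both at a low level of 2.17 ± 0.373, 2.12 ± 0.257 and 1.16 ± 0.330 CPM in the same order.

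The high-affinity IgG receptor FCGR1A and the receptor LILRA1 went opposite ways. FCGR1A rose to 39.9 ± 4.01 CPM with shRNA 1 and fell to 14.8 ± 1.27 CPM with shRNA 2, against 29.8 ± 1.24 CPM in the control (SD, n = 4 each). LILRA1 rose to 12.5 ± 1.07 CPM with shRNA 1 and fell to 4.44 ± 1.16 with shRNA 2, against 7.97 ± 1.08 in the control. The difference between the shRNAs was -1.43 (SE 0.10) for FCGR1A and -1.49 (SE 0.18) for LILRA1, with edgeR adjusted p of 2.59e-11 and 1.88e-07. For GP6 the call was lost without control replicate 2 for shRNA 1 (edgeR adjusted p = 0.0591) and without control replicate 1, 2 or 3 or shRNA 2 replicate 2 or 3 for shRNA 2 (0.0655, 0.0828, 0.0564, 0.0904 and 0.0501). FCGR1A and the LILRA genes have close copies with which reads can be shared, and HIST2H2BF overlaps FCGR1A on the other strand.

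Among other ITAM chains and membrane adaptors, 9 of 16 genes were tested. For shRNA 1, 3 rose and 5 fell (88.9% called), and for shRNA 2, 3 rose and 3 fell (66.7% called), at median log2 changes of -0.62 and 0.33. Over all genes 57.3% and 50.0% were called. CD247, the zeta chain of the T cell receptor, is a relative of FCER1G, and it fell to 6.38 ± 1.45 CPM with shRNA 1 and 11.0 ± 1.59 with shRNA 2, against 22.5 ± 1.35 in the control (SD, n = 4 each). Its log2 changes were -1.81 (SE 0.15, edgeR adjusted p = 6.72e-10) and -1.03 (SE 0.15, edgeR adjusted p = 3.56e-06), opposite in sign to the differences of the 3 adaptors. LAT2, a linker of myeloid and B cells, also fell with both, to 4.70 ± 0.627 and 5.13 ± 0.331 CPM against 7.25 ± 1.20.

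FCGR2A, an Fc receptor with an ITAM in its own tail, rose with both shRNAs to 26.5 ± 3.31 and 28.8 ± 0.824 CPM, against 16.6 ± 2.52 CPM in the control (SD, n = 4 each). PIK3AP1, a cytosolic adaptor that like HCST binds PI 3-kinase, rose to 49.2 ± 6.23 and 87.2 ± 2.81 CPM, against 38.7 ± 3.18. FCGR2C rose with shRNA 1 to 34.7 ± 4.99 CPM, against 14.8 ± 2.46, and stood at 18.6 ± 3.07 with shRNA 2 (edgeR adjusted p = 0.0593). CD79A, the B cell receptor chain with an ITAM, fell with shRNA 1 to 1.64 ± 0.480 CPM and rose with shRNA 2 to 13.5 ± 0.839, against 5.11 ± 1.24 in the control. The shRNA 2 call of LAT2 was lost without control replicate 1 or 2 or shRNA 2 replicate 2, 3 or 4 (edgeR adjusted p = 0.109, 0.0627, 0.0559, 0.0726 and 0.0586), and FCGR2C, whose sequence is close to FCGR2A, was called without control replicate 4, shRNA 1 replicate 1 or shRNA 2 replicate 4 (0.0254, 0.0334 and 0.0234) and with upper quartile scaling, the replicate block or only the groups compared (0.0414, 0.0331 and 0.0303).

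The enzymes and linkers downstream of these adaptors changed in both directions. Of 46 genes 40 were tested. Against the control 9 rose and 17 fell with shRNA 1, while 12 rose and 12 fell with shRNA 2, at median log2 changes of -0.15 and -0.02. The shares called, 65.0% and 60.0%, stand beside the 57.3% and 50.0% of all genes.

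SYK, a kinase that docks on a phosphorylated ITAM, rose by 0.41 (SE 0.11, edgeR adjusted p = 0.00268) with shRNA 1 and by 0.71 (SE 0.11, edgeR adjusted p = 9.23e-06) with shRNA 2, and it is named here after its values were seen. ZAP70, the other such kinase, went the other way at a low level of 1.76 ± 0.780 CPM in the control. Its log2 difference was -1.15 (SE 0.47, edgeR adjusted p = 0.0421) with shRNA 1 and -0.93 (SE 0.47, edgeR adjusted p = 0.104) with shRNA 2. PTPN6, the phosphatase SHP-1 that opposes ITAM signals, rose to 128 ± 9.65 and 102 ± 4.94 CPM with shRNA 1 and shRNA 2, against 52.4 ± 3.13 CPM in the control (SD, n = 4 each). SLA, an adaptor that dampens receptor signalling, stood at 8.0 ± 1.17, 21.4 ± 1.27 and 2.74 ± 0.527 CPM with shRNA 1, shRNA 2 and the control shRNA and was higher with both. MALT1, which links CARD9 and BCL10 to NF-kB, rose to 35.2 ± 3.33 and 35.9 ± 2.67 CPM, against 23.3 ± 3.00. DOK1, a docking protein that restrains SYK and RAS signals, fell to 53.6 ± 6.37 and 67.8 ± 3.37 CPM, against 125 ± 5.37. YES1, a SRC-family kinase, rose with shRNA 1 to 63.7 ± 6.89 CPM and stood at 27.2 ± 2.39 with shRNA 2, against 29.2 ± 2.13. CBL, a ubiquitin ligase that marks activated receptors for breakdown, fell with shRNA 2 to 184 ± 10.3 CPM and stood at 317 ± 23.9 with shRNA 1, against 305 ± 7.64. The shRNAs differed in both, by -1.23 (SE 0.09) for YES1 and -0.79 (SE 0.06) for CBL on the log2 scale, with edgeR adjusted p of 1.06e-10 and 3.99e-10. With upper quartile scaling CBL was called higher with shRNA 1 (edgeR adjusted p = 0.0441). SLA, DOK1 and CBL overlap TG, LOXL3 and MCAM on the other strand, whose reads cannot be told from theirs without strand.

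NFKBID belongs to the IkB family, and 2 relatives that also act in the nucleus rose with both shRNAs. BCL3, a nuclear IkB protein that binds NFKB1 and NFKB2 dimers, had 6.67 ± 0.667 CPM with shRNA 1, 6.79 ± 0.766 with shRNA 2 and 2.85 ± 0.488 in the control (SD, n = 4 each). It rose by 1.24 (SE 0.20, edgeR adjusted p = 9.59e-06) and 1.26 (SE 0.20, edgeR adjusted p = 9.9e-06). NFKBIZ, likewise a nuclear IkB protein, rose to 20.3 ± 4.22 and 20.5 ± 2.09 CPM, against 11.4 ± 1.95. Between the shRNAs BCL3 differed by 0.03 (SE 0.18, edgeR adjusted p = 0.911) and NFKBIZ by 0.01 (SE 0.14, edgeR adjusted p = 0.956).

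Of the 12 tested NF-kB and IkB genes, 7 rose and 2 fell with shRNA 1 (75.0% called) and 4 rose and 2 fell with shRNA 2 (50.0% called), with medians of 0.36 and 0.11. Over all genes the shares called were 57.3% and, equal to that of the list, 50.0%. IKBKB, a kinase that releases NF-kB, rose to 120 ± 3.97 and 99.3 ± 3.93 CPM, against 73.8 ± 1.35 CPM in the control (SD, n = 4 each). NFKBIA, the cytoplasmic inhibitor, rose to 38.7 ± 3.73 and 27.8 ± 1.34 CPM, against 23.4 ± 2.04. NFKB1, the p105 precursor of p50, fell with shRNA 1 to 31.3 ± 4.56 CPM and stood at 71.5 ± 2.21 with shRNA 2, against 66.6 ± 1.24. RELB, of the non-canonical branch, rose with shRNA 1 to 36.9 ± 7.62 CPM and stood at 15.7 ± 1.57 with shRNA 2, against 15.8 ± 1.67. Without control replicate 1 or shRNA 2 replicate 1 only 3 genes of the list were called with shRNA 2, in place of 6. The shRNA 2 call of NFKBIA (edgeR adjusted p = 0.0377) was lost without control replicate 1, 2 or 4 (0.0991, 0.0541 and 0.112) or shRNA 2 replicate 1, 2 or 4 (0.0757, 0.0647 and 0.0963).

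**Figure D4:**
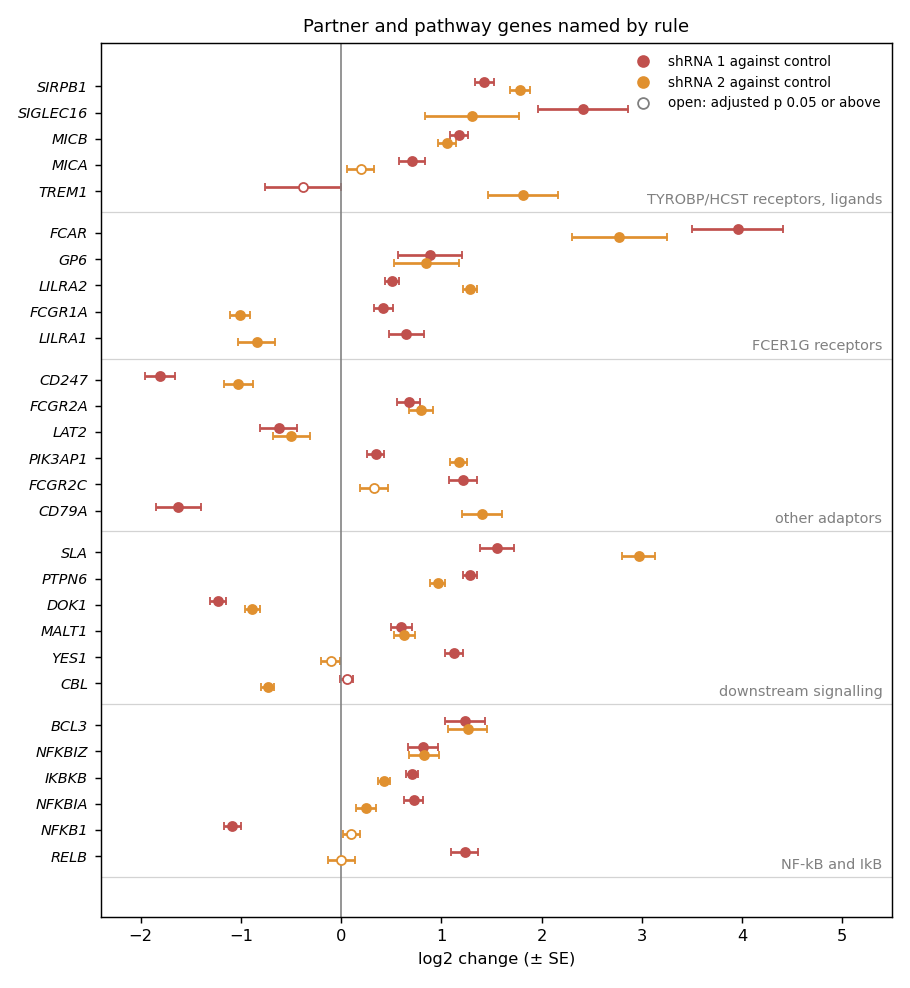
Log2 change against the control (x axis, ± SE from the fit) with shRNA 1 and shRNA 2 for the partner, adaptor, downstream and NF-kB genes named by rule. Filled points passed an edgeR adjusted p of 0.05 and open points did not: SIRPB1, MICB, FCAR, SLA, PTPN6 and BCL3 lie above 0 with both shRNAs, CD247 and DOK1 below 0 with both, and FCGR1A, LILRA1 and CD79A on opposite sides.

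Between the shRNAs, 58.7% of all tested genes were called (29.3% higher with shRNA 2, 29.4% lower). Among receptors of TYROBP or HCST and KLRK1 ligands 5 were higher and 3 lower with shRNA 2 than with shRNA 1, among FCER1G receptors 2 and 3, among other adaptors 5 and 1, among downstream genes 15 and 10, and among NF-kB and IkB genes 3 and 5. The shares called in these 5 lists, from 55.6% to 66.7%, lie near that of all genes. Among the chromosome 19 neighbours 1 of 5 was called, LRFN3.

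Totals ran from 12236937 to 20388437 counts per library. FIP1L1 stood at 14.1 to 17.6 CPM with shRNA 1 and 18.7 to 20.2 with shRNA 2, against 38.9 to 44.1 in the control. Transcripts that mark Kasumi-1, among them KIT, MPO and RUNX1T1, were all detected, the 8 of the list summing to 8011 to 10863 CPM with shRNA 1 and 10861 to 13592 with shRNA 2, against 17913 to 20102 in the control. Most of that sum was MPO, at 7212 CPM with shRNA 1 and 9913 with shRNA 2, against 16234 in the control. HCST, TYROBP and FCER1G are also found in NK cells, T cells and monocytes, so markers of such cells were examined. Every library came from the Kasumi-1 line. In bulk RNA, more cells that hold a transcript and more of it per cell cannot be told apart. Of 17 NK and T cell markers 11 were under 1 CPM in every library, and the summed level of the list was 50.4 to 65.1 CPM with shRNA 1 and 132 to 140 with shRNA 2, against 146 to 168 in the control, most of it CD4. The 6 tested genes of that list differed in direction. CD4, CD247 and IL2RB had lower means with both shRNAs than in the control. NKG7 had a higher mean with both, 8.09 ± 3.65 and 5.86 ± 1.02 CPM against 4.08 ± 0.0709. CD3E was above the control mean only with shRNA 2 and CD8A only with shRNA 1. Of 13 monocyte and macrophage markers 8 were under 1 CPM in every library, with CD163 at 0 reads and CD14 at a mean of at most 0.201 CPM in any group, and the sum was 47.3 to 61.8 CPM with shRNA 1 and 36.9 to 49.5 with shRNA 2, against 41.1 to 47.9 in the control. The 5 tested genes of that list did not share one order of the groups. LYZ stood at 4.85 ± 1.96 CPM with shRNA 1, 6.41 ± 0.950 with shRNA 2 and 0.639 ± 0.233 in the control (SD, n = 4 each). S100A9 stood at 0.415 ± 0.328 CPM with shRNA 1, 2.65 ± 0.474 with shRNA 2 and 0.137 ± 0.144 in the control. VCAN stood at 1.00 ± 0.555 CPM with shRNA 1, 7.02 ± 0.894 with shRNA 2 and 2.24 ± 0.673 in the control. VCAN was thus highest with shRNA 2 and lowest with shRNA 1, while LYZ and S100A9 were lowest in the control. CSF1R stood at 10.2 ± 1.21 CPM with shRNA 1, 11.8 ± 5.13 with shRNA 2 and 12.3 ± 3.25 in the control. The fifth, FCGR1A, is described above. Of 7 mast cell and basophil markers MS4A2 was at 0 reads, and FCER1A, the alpha chain of the IgE receptor, averaged at most 0.0115 CPM, while the sum of the list was 54.2 to 60.0 CPM with shRNA 1 and 81.6 to 84.2 with shRNA 2, against 58.9 to 66.5 in the control. Most of that sum was GATA2, at 52.2 CPM with shRNA 1 and 80.5 with shRNA 2, against 57.7 in the control. TPSAB1 had a mean of 1.01 CPM with shRNA 1 and 0.522 with shRNA 2, against 1.54 in the control. For TPSB2 the means were 1.94 and 0.936, against 1.43, and for HDC 0.503 and 0.744, against 0.641. CPA3, which did not pass the low-count filter, had 0.131 and 0.598, against 0.299. The part of these transcripts in the members' levels was not tested.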

How the data were processed

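RNA-seq of 12 Kasumi-1 libraries was used, 4 each with shRNA 1, shRNA 2 and a control shRNA. The deposited values are whole-number read counts per Ensembl gene, not normalised. The submitters' processing notes name the build hg19 and the tools STAR 2.7.3a, cutadapt 2.6 and DESeq2, without saying what each did. The sources used here name no counting tool, annotation or strand setting. Totals were 12236937 to 20388437 counts per library. No 2 libraries of the same group agreed within sampling noise (chi-square over degrees of freedom 3.65 to 32.4). The shRNA 1 pairs had 11.8 to 32.4, except replicates 3 and 4 at 4.07. Control pairs reached at most 7.58 and shRNA 2 pairs at most 6.77, so the shRNA 1 libraries differed most among themselves.

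Symbols, positions and exon lengths came from GENCODE 29 (GRCh38) by Ensembl ID, and 45342 of 48162 IDs had a symbol. Tests used the quasi-likelihood method of edgeR 4.0.16 in R 4.3.3: TMM scaling, filterByExpr (15834 genes left), robust spread, 1 fit of all 12 libraries with 9 residual degrees of freedom, two-sided, Benjamini-Hochberg adjusted at 0.05. CPM use the TMM-scaled library size, log2 changes a prior count of 0.125, and correlations log2(CPM + 0.5). Intervals for read ratios cover counting error only.

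The members and gene lists were chosen with earlier results of these data known. From each list up to 4 tested genes called the same way with both shRNAs are named, those with the largest smaller change, and up to 2 others with the smallest adjusted p. Neighbours within 100 kb of HCST, and the 5 (HCST) or 3 genes most like a member, are also named. Outside this rule SYK and ZAP70, and every called gene of the list with receptors of TYROBP or HCST, are named as well. Alternatives were RLE and upper quartile scaling, no filter, DESeq2 1.42.0, only the groups compared, a replicate block, and leaving out each library. The planned look at poly(A) sites of the members was not run, since the 3'READS table was not used here. The tests were checked on simulated data.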

Additional observations from a re-analysis of the deposited data

Results flagged for a closer look

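Of 111 groups of 4 libraries examined for the members and the genes named with them, 3 held a library far from the other 3, where chance would give about 5.55, and none of these was a group of HCST, TYROBP, NFKBID or FCER1G. YES1 stood at 73.9 CPM in shRNA 1 replicate 1, against 59.4 to 61.3 CPM in the other shRNA 1 libraries. SLA stood at 19.5 CPM in shRNA 2 replicate 1, against 22.0 to 22.1 CPM in the other shRNA 2 libraries. FCGR1A stood at 28.0 CPM in control replicate 4, against 30.3 to 30.6 CPM in the other control libraries. No call of these 3 genes was lost, gained or reversed when the library was left out.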

How the results depend on the processing

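The 12 log2 differences of the members, and the counts of called genes over all genes and over the 6 lists, were recomputed under 18 alternatives, and no value changed sign. Of 594 recomputed values 581 stayed within the spread between replicates or within 1.5 times the count, and the other 13 all came from leaving out a library. TYROBP ranged from 4.79 to 5.54 with shRNA 1 and from 2.42 to 3.16 with shRNA 2, lowest without control replicate 2 and highest without control replicate 4. FCER1G ranged from 1.70 to 2.46 with shRNA 1 and from 0.23 to 0.91 between the shRNAs, with 1.70 and 0.91 reached without shRNA 1 replicate 2. Called neighbours on chromosome 19 numbered 1 to 4 with shRNA 1, 1 to 3 with shRNA 2 and 1 to 2 between the shRNAs, and called NF-kB and IkB genes 3 to 6 with shRNA 2. Called receptors of TYROBP or HCST and KLRK1 ligands numbered 5 to 9 with each shRNA. Upper quartile scaling moved the median of all genes to 0.12 with shRNA 1, against 0.02 with TMM. With a replicate block 9123, 8005 and 9337 genes were called for shRNA 1, shRNA 2 and shRNA 2 against shRNA 1, beside 9076, 7912 and 9299 without it.

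Same-numbered libraries of different groups deviated together little if at all (r from -0.0405 to 0.117 over 12 pairs, each library closest to its own number in 4). The main fit did not pair libraries by number. Such correlations cannot show whether same-numbered libraries were made together, which the labels do not give. Without the low-count filter the calls of SIGLEC16 and SYNE4 (shRNA 2), GP6 (both), LAT2 and NFKBIA (shRNA 2) were lost, with adjusted p from 0.0582 to 0.0891. TYROBP and FCER1G rest on 8 and 18 control reads, which limits their differences.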

Other observations

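LAT, LIME1 and KLRK1 were listed at 0 reads in all 12 libraries. PAG1 had 3 reads in 1 library and CD68 1 read in 1 library. Each of these genes overlaps another gene in GENCODE 29, and their levels were not used for any comparison.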
